A study of Mus musculus with 36 samples.

Results

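The 10 core circadian clock genes Arntl, Clock, Npas2, Per1, Per2, Per3, Cry1, Nr1d1, Nr1d2 and Dbp were followed across the livers of 36 mice. They were chosen by name, as the rows of the deposited TPM table that carry these gene names, and are 10 of its 49315 rows. TPM (transcripts per 1000000) is a level corrected for gene length and for the total of a library, so levels of different genes can be set side by side. All 10 passed the filter for testing, at least 1 TPM in at least 4 libraries, which left 16638 genes. Npas2 passed with 5 libraries and the other genes with 19 or more.

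The study crossed 3 genotypes with 3 treatments, with 4 male mice of 11 to 12 weeks in each of the 9 groups. CRISPR was used to change tryptophan (W) 441 of LXRalpha, a nuclear receptor for oxidised cholesterol, to phenylalanine (F), giving homozygous controls (W/W), heterozygotes (W/F) and homozygous mutants (F/F). The design text writes the receptor's gene as Nr1h2, while the usual symbol of LXRalpha is Nr1h3. The chow groups (W/W, W/F and F/F) came from an independent cohort on a normal chow diet, for which no gavage is described. The vehicle groups of each genotype ate a Teklad diet that promotes metabolic dysfunction-associated steatohepatitis (MASH), high in fat and cholesterol, for 4 weeks and were gavaged with vehicle each day of the last 2 weeks. The T0901317 groups of each genotype had the same diet and, over the same 2 weeks, a daily gavage of T0901317, a synthetic LXR agonist, at 10 mg/kg. The edit lies in the germ line and so in every cell type, and the number of founder lines is not given. The time of day of collection, the feeding state and the interval after the last gavage are not given in the sources used here. Each library is 1 mouse, numbered 1 to 4 within its group as in the labels.

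The circadian clock is a feedback loop that runs in almost every cell and gives liver genes a daily rhythm. Arntl (also called Bmal1) pairs with Clock or Npas2, and the pair switches on genes that carry E-box motifs, among them the Per and Cry genes, Nr1d1, Nr1d2 and Dbp. PER and CRY proteins then block that pair, and NR1D1 and NR1D2 (REV-ERB alpha and beta), which bind ROR elements, repress Arntl, Npas2, Clock and Cry1. DBP, an output factor, binds D-boxes such as those of the Per genes. In mouse liver Arntl, Npas2 and Clock are therefore high around the end of the night, while Nr1d1, Dbp and the Per genes are high at later points of the day, and feeding time is a strong cue for this rhythm. Single livers taken at an unstated hour show 1 point of the cycle per mouse.

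The motifs through which these genes act on each other were looked for in RefSeq promoter windows (GRCm38.p6, 250 bases before to 50 bases after a start). The search, on both strands, covered the E-box CACGTG, the E-box variant CACGTT, the D-box TTATGTAA or TTACGTAA, and the core of the ROR element TAGGTCA or TGGGTCA. None of these words contains another. Windows were read for 9 of the 10 members, all except Per2. Those of Arntl (1 of 2 windows), Cry1, Per1 (1 of 2 windows), Per3 and Nr1d1 held matches and are shown as the members with a match. Tef, Ciart and Coq10b are shown beside them as the matched promoters among the genes that followed Dbp most closely. Usp2, which followed Dbp about as closely (r = 0.90), held no match. Clpx, the gene that followed Arntl most closely (r = 0.92), held an E-box variant and is not shown. Capitals mark the match, which reads as the reverse complement (AACGTG, TTACATAA) where it lies on the other strand.
Arntl, chr7:113207529-113207558, plus strand, ROR element: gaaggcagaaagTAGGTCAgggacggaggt
Cry1, chr10:85185095-85185149, minus strand, E-box variant and E-box: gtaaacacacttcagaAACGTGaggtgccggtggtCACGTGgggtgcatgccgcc
Per1, chr11:69098768-69098803, plus strand, E-box: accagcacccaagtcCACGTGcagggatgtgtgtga
Per3, chr4:151044806-151044885, minus strand, 2 D-boxes: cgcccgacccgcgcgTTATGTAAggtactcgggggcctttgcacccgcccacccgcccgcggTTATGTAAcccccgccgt
Nr1d1, chr11:98775388-98775422, minus strand, E-box variant: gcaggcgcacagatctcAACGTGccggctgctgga
Tef, chr15:81802528-81802567, plus strand, E-box: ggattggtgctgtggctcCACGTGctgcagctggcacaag
Ciart, chr3:95882253-95882358, minus strand, 3 E-boxes: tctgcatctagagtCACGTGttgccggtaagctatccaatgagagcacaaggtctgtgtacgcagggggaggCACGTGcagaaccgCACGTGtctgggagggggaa
Coq10b, chr1:55052595-55052714, plus strand, D-box and E-box: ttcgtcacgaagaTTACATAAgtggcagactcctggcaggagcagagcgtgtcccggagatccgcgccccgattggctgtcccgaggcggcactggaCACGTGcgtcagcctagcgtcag
The windows of Clock (3 starts), Npas2, Nr1d2 and Dbp held none of these letters, which says nothing about sites elsewhere in those genes. Over all 32851 windows of the same length, 7.15% held the E-box, 4.68% its variant, 1.06% a D-box and 6.45% the ROR core, and 18.1% held any of them. A match is a description of the letters and does not show binding.

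The libraries held 18.0 to 35.6 M reads (M, 1000000; median 23.8 M), recovered from the steps of low TPM values. A member's recovered reads were fewest for Npas2, from 0 to 69.7 per library, and for Arntl, from 15.9 to 482. Dbp, Nr1d1 and Clock had at least 332 in every library. All groups expressed hepatocyte markers, with a summed level of 5 markers between 32302 and 98091 TPM, so the tissue label held. The lowest sums were those of F/F vehicle (32302 to 35392 TPM, against 62643 to 83864 in W/W vehicle), where 4 of the 5 markers were lower (median -1.10, log2). The summed level of 7 macrophage markers was 108 to 152 TPM in W/W chow and 485 to 781 in F/F chow. It was 156 to 299 in W/W vehicle, 2926 to 3984 in W/F vehicle and 3614 to 4707 in F/F vehicle, and 172 to 352 in W/W T0901317 and 1391 to 2201 in F/F T0901317. The summed level of the bile duct markers was 54.0 to 61.4 TPM in W/W vehicle, 1163 to 1590 in W/F vehicle and 2908 to 3554 in F/F vehicle. None of these markers was at 0 in all 4 mice of a group. The median gene also differed between groups, by 0.52 (log2) between W/F and W/W and by 0.70 between F/F and W/W on vehicle. Every comparison is therefore given for TPM as deposited and for TPM rescaled so that the median gene is level. In bulk liver, fewer cells of a type and less RNA per cell cannot be told apart.

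Nr1d1 and Dbp were the most abundant members, with means over all mice of 90.1 and 79.1 TPM. Nr1d2 (36.7 TPM), Per1 (18.7), Per2 (12.8) and Per3 (8.03) followed, then Cry1 (5.31) and Clock (5.23), Arntl (1.65) and Npas2 (0.454). The spread between mice was wide for most of them. Arntl ran from 0.198 to 7.45 TPM, a 37.7-fold range, Per1 from 1.79 to 42.6 (23.8-fold) and Per3 from 1.58 to 15.4 (9.76-fold), while Nr1d2 covered 22.9 to 56.5 TPM (2.46-fold). When the 9 group means of a member were put in order, all 8 pairs of neighbours overlapped, for each of the 10 members. Neighbours in such an order are the closest groups, and the share of all genes that do the same was not worked out. Groups farther apart in the order did not always overlap, as given below. The plot of levels by group shows the spread between mice.

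**Figure D1:**
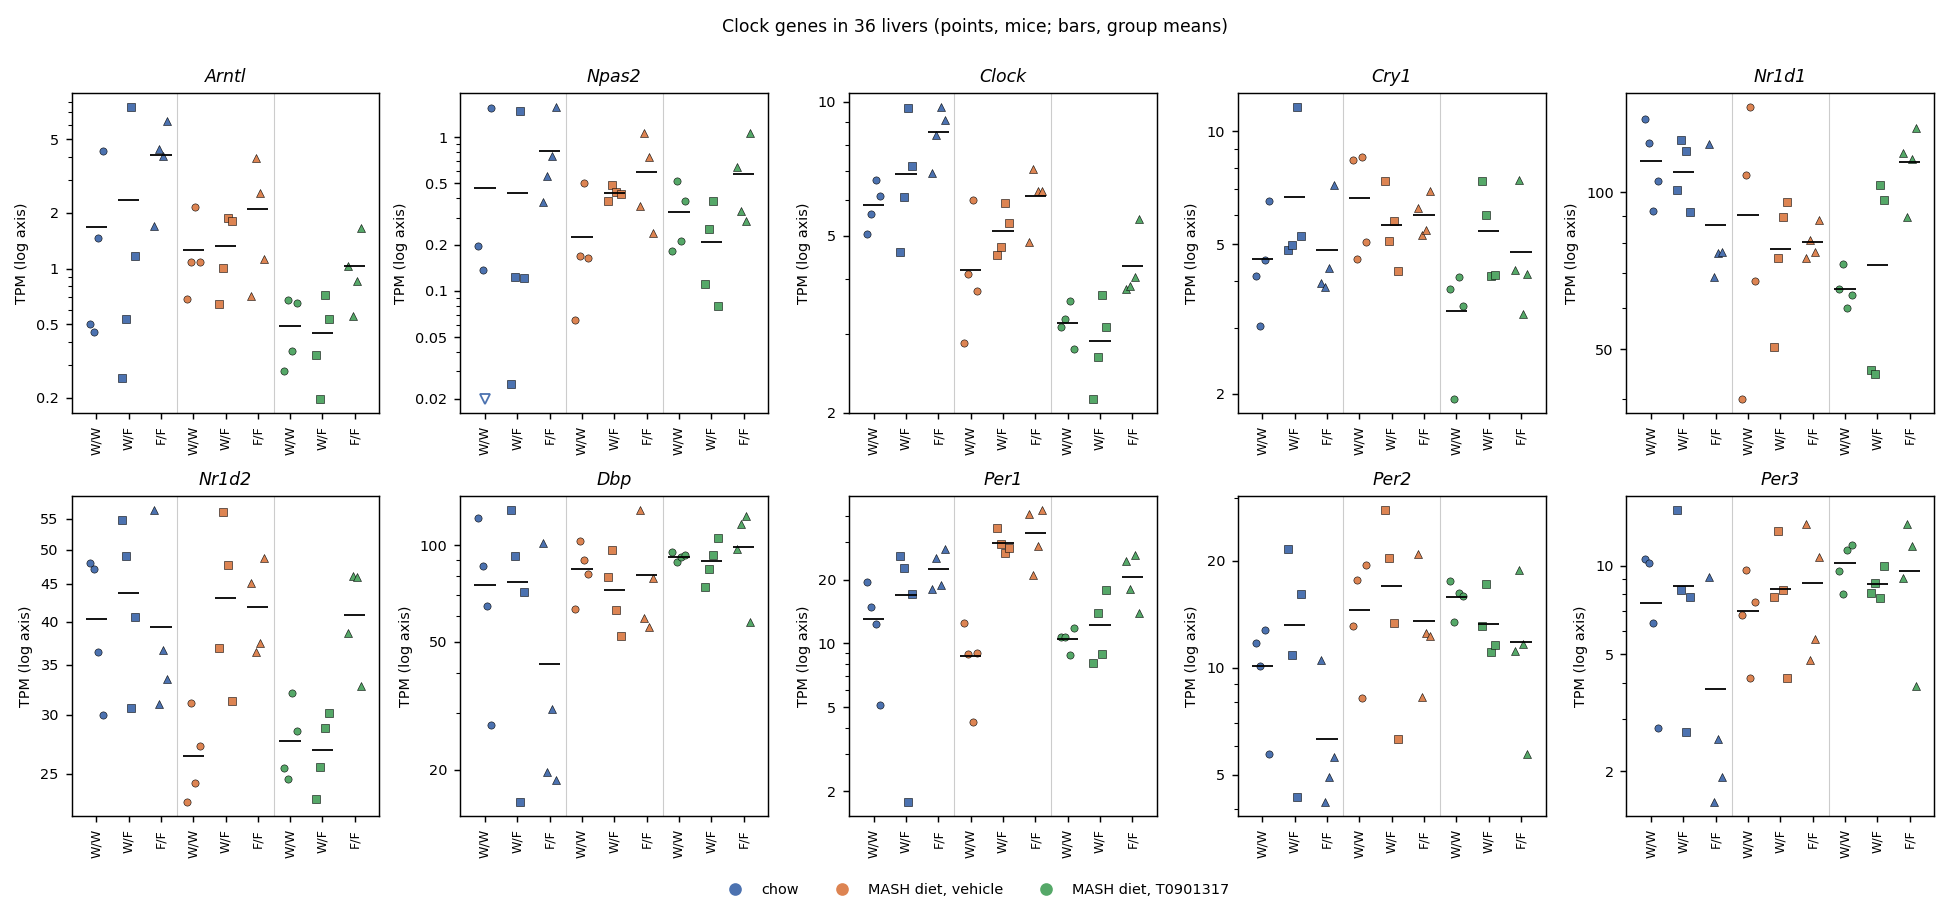
Levels of the 10 clock genes (TPM, log axes) in 9 groups of genotype and treatment, with 1 point per mouse and a bar at each group mean. The open triangle is the W/W chow mouse in which Npas2 was listed at 0. The chow points spread widely for Arntl (0.255 to 7.45 TPM), Per1 (1.79 to 27.9 TPM), Per3 (1.58 to 15.4 TPM) and Dbp (15.9 to 128 TPM), among others.

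Group means were compared with limma on log2(TPM + 1), two-sided, with Benjamini-Hochberg adjustment over all 16638 genes and a threshold of 0.05. Against chow, the MASH diet with vehicle changed 1 of 10 members (W/W), 1 (W/F) and 4 (F/F), where 12.9%, 61.0% and 55.8% of all genes passed. After rescaling, the counts were 0, 3 and 1 (3 members had an unadjusted p under 0.05 in W/W), and 15.4%, 54.9% and 47.0% of all genes passed. The MASH diet with T0901317 against chow gave 3, 2 and 4 members in W/W, W/F and F/F (23.1%, 29.7% and 37.4% of all genes). After rescaling these were 2, 2 and 4 (28.7%, 37.2% and 37.6%). T0901317 against vehicle gave 1, 3 and 1 (10.8%, 65.9% and 35.1%), and 1, 0 and 0 after rescaling (13.5%, 50.8% and 16.3%), with 0 further unadjusted p under 0.05 in W/F and 1 in F/F. The share of members was below that of all genes in W/F and F/F, under both scalings, for vehicle against chow and for T0901317 against vehicle, and above it in some and below it in others of the remaining comparisons. With 10 members, 1 call more or less moves the share widely, so small differences from that of all genes say little. These comparisons share groups with each other, so their calls are not independent of each other.

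Between genotypes, W/F against W/W changed 0 members on chow (0.487% of all genes), 2 on vehicle (68.5%) and 0 on T0901317 (9.88%). By limma, 0 members on chow and 1 on T0901317 had an unadjusted p under 0.05. F/F against W/W changed 2 members on chow (46.7%), 3 on vehicle (76.5%) and 2 on T0901317 (63.2%). After rescaling, the counts for W/F were 0, 3 and 0 (0.601%, 53.1% and 13.4%) and those for F/F 3, 3 and 1 (29.9%, 59.1% and 46.9%). The share of members was below that of all genes on vehicle in both genotypes and on T0901317 in F/F, under both scalings. In F/F on chow it was below in deposited TPM and near it after rescaling. In W/F on chow and on T0901317 the share of all genes was so low that 0 of 10 members says little. The groups compared here also differed in the hepatocyte, macrophage and bile duct markers given above, whose part in the changes of the clock genes was not tested. The heat map of changes shows both scalings.

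**Figure D2:**
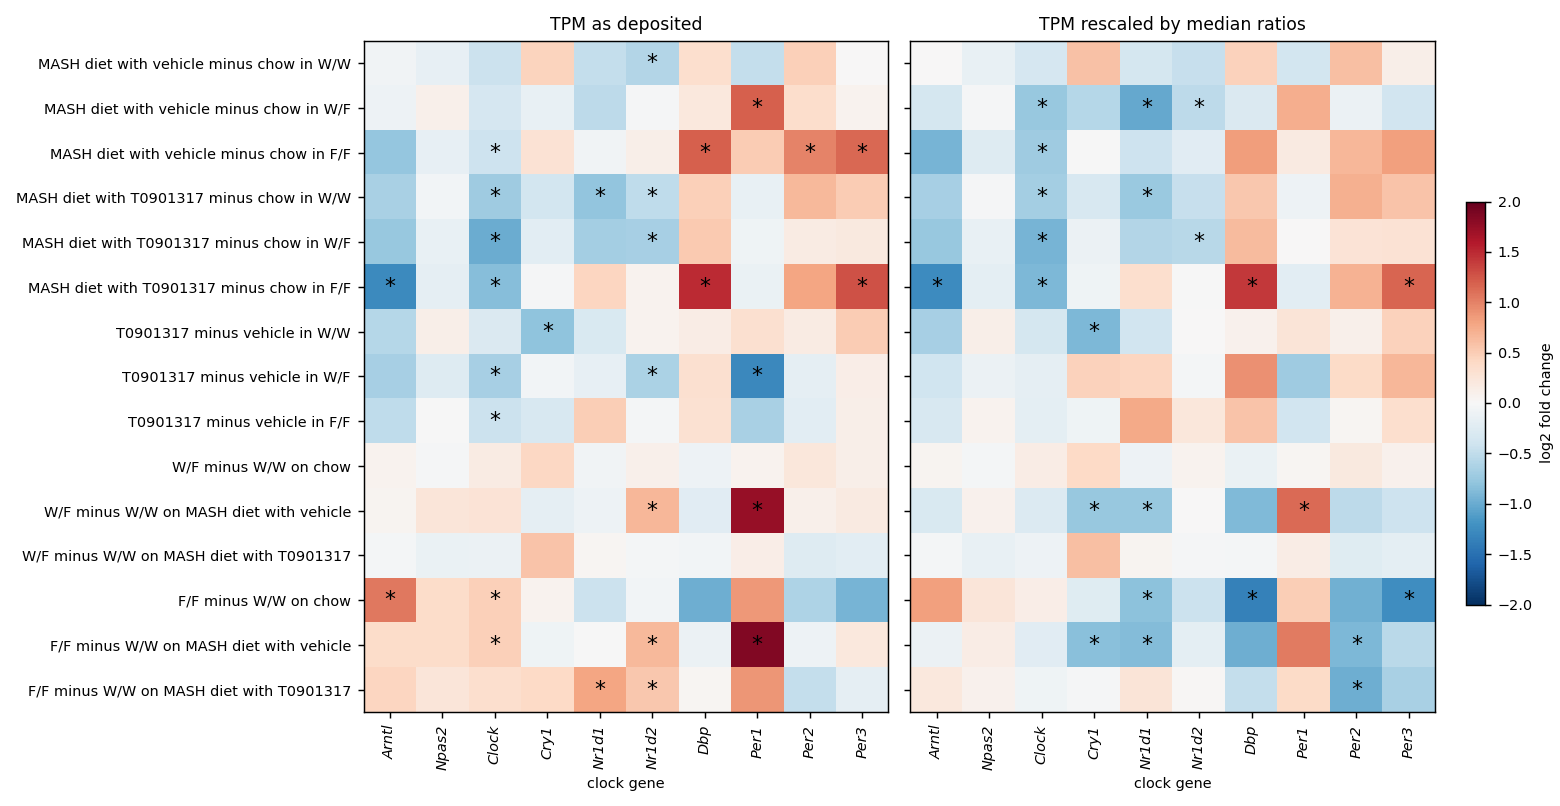
Fitted log2 fold change of each clock gene in 15 comparisons of 2 groups, from TPM as deposited (left) and rescaled (right), with a star where the adjusted p by limma was under 0.05. Clock is lower in all 3 comparisons of MASH diet with T0901317 with chow under both scalings (-0.71, -0.99 and -0.85 as deposited).

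Clock, the partner of Arntl in the activating pair, was the member called against chow in all 3 genotypes and under both scalings once T0901317 was added to the diet. On chow it measured 5.04, 5.60, 6.67 and 6.14 TPM in the W/W mice 1 to 4, 4.60, 6.11, 9.66 and 7.16 in W/F and 6.90, 8.42, 9.71 and 9.11 in F/F. On the MASH diet with vehicle it measured 2.87, 4.11, 6.02 and 3.75 in W/W, 4.53, 4.70, 5.92 and 5.33 in W/F and 4.84, 7.07, 6.30 and 6.29 in F/F. With T0901317 it measured 3.11, 3.25, 3.57 and 2.78 in W/W, 2.15, 2.66, 3.68 and 3.12 in W/F and 3.80, 3.85, 4.03 and 5.45 in F/F. In each genotype all 4 mice on MASH diet with T0901317 lay below all 4 on chow. The vehicle mice lay between the other groups on average and overlapped chow in every genotype.

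Between chow and the MASH diet with T0901317, Clock fell from 5.86 ± 0.701 to 3.18 ± 0.327 TPM in W/W (mean ± SD, n = 4 mice). The log2 fold change was -0.71 (SE 0.17, adjusted p by limma 0.0019). In W/F it fell by 0.99 on the log2 scale (adjusted p 4.2e-05, limma) and in F/F by 0.85 (adjusted p 2.2e-04, limma). Rescaled values gave -0.68, -0.93 and -0.90, and the call in deposited TPM held in each genotype when any 1 of its 8 libraries was left out. For the diet with vehicle against chow, W/W gave -0.43 (adjusted p 0.085), W/F gave -0.33 (adjusted p 0.084) and F/F gave -0.42 (adjusted p 0.031), all by limma. W/W was called without vehicle mouse 3 (-0.59, adjusted p 0.022) and W/F without chow mouse 1 (-0.48, adjusted p 0.014, limma). After rescaling it was -0.34 in W/W, which did not pass (adjusted p 0.15), and -0.75 and -0.70 in W/F and F/F, which did. The F/F call in deposited TPM was lost without F/F chow mouse 2, 3 or 4 or vehicle mouse 1 (-0.33 to -0.42, adjusted p 0.053 to 0.12, limma). Diet, cohort and gavage move together in each of these comparisons and cannot be told apart.

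Added to the MASH diet, T0901317 lowered Clock further in W/F (-0.66, adjusted p 9.1e-04, limma, groups apart) and in F/F (-0.43, adjusted p 0.042), and gave -0.28 in W/W (adjusted p 0.33). The median gene moved by -0.49 in the same W/F comparison and by -0.24 in F/F. After rescaling neither passed, with -0.18 in W/F (adjusted p 0.36, limma) and -0.20 in F/F (adjusted p 0.46). The F/F call was also lost without any 1 of T0901317 mice 1, 2 and 3 or vehicle mice 2, 3 and 4 (-0.37 to -0.42, adjusted p 0.080 to 0.12, limma).

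Arntl, the core activator, was low and variable. In chow mice 1 to 4 it measured 0.501, 0.456, 1.46 and 4.33 TPM in W/W, 0.255, 0.533, 7.45 and 1.16 in W/F and 1.69, 4.45, 4.07 and 6.29 in F/F. With vehicle it measured 0.686, 1.09, 2.16 and 1.08 in W/W, 0.639, 1.00, 1.87 and 1.82 in W/F and 0.710, 3.96, 2.58 and 1.13 in F/F. With T0901317 it measured 0.281, 0.676, 0.357 and 0.650 in W/W, 0.341, 0.198, 0.720 and 0.531 in W/F and 1.03, 0.553, 0.858 and 1.66 in F/F. Mouse 4 of W/W chow, mouse 3 of W/F chow and mice 2, 3 and 4 of F/F chow were the only ones above 4 TPM. F/F chow (lowest 1.69) lay just above F/F T0901317 (highest 1.66), and W/W vehicle (lowest 0.686) just above W/W T0901317 (highest 0.676). The other groups of a genotype overlapped.

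In F/F, Arntl fell from 4.13 ± 1.89 TPM on chow to 1.03 ± 0.469 on MASH diet with T0901317 (SD, n = 4). The log2 fold change was -1.28 (SE 0.43, adjusted p by limma 0.020), and -1.26 after rescaling (adjusted p 0.021). It did not pass without T0901317 mouse 2 (-1.16, adjusted p 0.060, limma) or chow mouse 4 (-1.08, adjusted p 0.066). On chow, Arntl was 1.06 (log2) higher in F/F than in W/W (adjusted p 0.043, limma), but 0.82 after rescaling (adjusted p 0.16). That call was lost without any 1 of W/W mice 1, 2 and 3 or F/F mice 2, 3 and 4 (0.84 to 1.09, adjusted p 0.061 to 0.14, limma).

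Npas2, which can take the place of Clock, was near the limit of the table. It reached 1 TPM in W/W chow mouse 4 (1.54), W/F chow mouse 3 (1.48), F/F chow mouse 4 (1.56), F/F vehicle mouse 2 (1.06) and F/F T0901317 mouse 4 (1.06), and was listed at 0 in W/W chow mouse 3. Each of the 5 mice above 1 TPM also had the highest Arntl of its group. With all libraries, no comparison of 2 groups called Npas2 in either scaling by limma. Without W/W chow mouse 4, its difference between F/F and W/W on chow went from 0.37 to 0.67 and was called in deposited TPM (adjusted p 0.023, limma), and gave 0.57 rescaled (adjusted p 0.067).

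Of the repressors, Per1, which is also induced quickly by stress hormones and feeding, was higher in W/F and F/F than in W/W on vehicle in deposited TPM. With vehicle it measured 12.5, 8.92, 4.27 and 9.05 TPM in W/W mice 1 to 4, 35.2, 29.5, 26.9 and 28.2 in W/F and 40.9, 21.0, 29.0 and 42.6 in F/F. On chow it measured 19.6, 14.9, 12.4 and 5.10 in W/W, 25.9, 22.7, 1.79 and 17.2 in W/F and 18.1, 25.4, 18.9 and 27.9 in F/F. With T0901317 it measured 10.7, 10.8, 8.85 and 11.8 in W/W, 8.11, 13.9, 8.90 and 17.9 in W/F and 24.6, 18.0, 26.1 and 14.0 in F/F. On vehicle every W/F and F/F mouse lay above every W/W mouse, while on chow the genotypes overlapped. On chow, W/F mouse 3 was far below the other 3 mice of its group.

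On vehicle Per1 was higher in W/F than in W/W by 1.75 on the log2 scale (SE 0.45, adjusted p by limma 9.7e-04) and by 1.13 after rescaling (adjusted p 0.041). In F/F it was higher by 1.85 (adjusted p 4.2e-04, limma), with 1.04 after rescaling, which did not pass (adjusted p 0.055). These groups also differed in macrophage markers, whose summed levels are given above, and whose part in this was not tested. In W/F, Per1 rose by 1.20 from chow to vehicle (adjusted p 0.021, limma) and fell by 1.29 from vehicle to T0901317 (adjusted p 0.012). After rescaling neither passed, with 0.72 (adjusted p 0.19, limma) and -0.71 (adjusted p 0.21). Without W/F chow mouse 3 the diet change was 0.44 (adjusted p 0.24, limma), and without W/F vehicle mouse 1 it was 1.12 (an adjusted p just over the threshold).

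Per2 measured 10.5, 4.20, 4.91 and 5.61 TPM in F/F chow and 21.0, 8.28, 12.5 and 12.3 in F/F vehicle. Per3 measured 9.13, 1.58, 2.57 and 1.92 in F/F chow, 13.8, 4.79, 5.61 and 10.7 in F/F vehicle and 9.06, 13.8, 11.7 and 3.88 in F/F T0901317. Mouse 1 of F/F chow was the highest of its group for both genes. From chow to vehicle in F/F, Per2 rose by 0.99 (adjusted p by limma 0.031) and Per3 by 1.15 (adjusted p 0.023), with overlapping groups. After rescaling the changes were 0.66 and 0.83 and did not pass (adjusted p 0.16 and 0.11, limma). Per2 was also not called without F/F chow mouse 2, 3 or 4 or vehicle mouse 1 (0.77 to 0.97, adjusted p 0.056 to 0.12), nor Per3 without those or vehicle mouse 4 (0.91 to 1.09, adjusted p 0.051 to 0.094).

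With T0901317 against chow in F/F, Per3 rose by 1.27 (SE 0.43, adjusted p by limma 0.021) and by 1.17 after rescaling (adjusted p 0.030). It did not pass without F/F chow mouse 2 or 4 or T0901317 mouse 2 or 3 (1.05 to 1.15, adjusted p 0.054 to 0.082, limma). On chow, Per3 was -0.93 (log2) in F/F against W/W (adjusted p 0.074, limma) and lower by 1.24 after rescaling (adjusted p 0.026). In deposited TPM it was called without F/F chow mouse 1 (-1.37, adjusted p 0.0095, limma) or W/W chow mouse 4 (-1.27, adjusted p 0.021). Per2 gave 0.78 with T0901317 against chow in F/F (adjusted p 0.11, limma), and 1.06 without T0901317 mouse 4, which passed (adjusted p 0.043). Per2 was called between F/F and W/W only after rescaling, at -0.90 on vehicle (adjusted p 0.043, limma) and -0.97 on T0901317 (adjusted p 0.037).

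Cry1, which peaks later than the Per genes and carries both E-box and ROR control, differed within W/W. It measured 8.37, 4.58, 8.53 and 5.06 TPM in W/W vehicle mice 1 to 4 and 3.79, 1.94, 4.09 and 3.43 in W/W T0901317 mice, with no overlap. It fell by 0.81 on the log2 scale (SE 0.25, adjusted p by limma 0.034) and by 0.90 after rescaling (adjusted p 0.018). The call was lost without T0901317 mouse 2 or 4 or vehicle mouse 1 or 3 (-0.64 to -0.83, adjusted p 0.058 to 0.16, limma). In W/F and F/F the same comparison gave -0.06 and -0.32, which did not pass (adjusted p 0.85 and 0.33, limma). After rescaling Cry1 was lower on vehicle than in W/W both in W/F (-0.75, adjusted p 0.016, limma) and in F/F (-0.83, adjusted p 0.0069), whereas the deposited values gave -0.18 and -0.09, not called.

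Nr1d1, the repressor of Arntl named REV-ERB alpha, measured 138, 124, 91.9 and 105 TPM in W/W chow mice and 65.2, 72.8, 59.8 and 63.4 in W/W T0901317 mice, which did not overlap. It measured 119, 89.6, 116 and 133 in F/F T0901317 mice, all above the W/W mice on T0901317. In W/W it fell by 0.79 (log2) from chow to T0901317 (SE 0.28, adjusted p by limma 0.039) and by 0.73 after rescaling (adjusted p 0.043). Leaving out any 1 of the 8 libraries other than chow mouse 3 lost the call (-0.70 to -0.85, adjusted p 0.054 to 0.10, limma). In W/F the same comparison gave -0.69 (adjusted p 0.064, limma), which passed without T0901317 mouse 3 or 4 (-0.89 and -0.86, adjusted p 0.022 and 0.029). On T0901317, Nr1d1 was higher in F/F than in W/W by 0.79 (adjusted p 0.016, limma) and by 0.27 after rescaling, which did not pass (adjusted p 0.45). After rescaling alone, Nr1d1 was lower in F/F than in W/W on chow (-0.81, adjusted p 0.024, limma), and on vehicle in F/F (-0.87, adjusted p 0.0072) and W/F (-0.75, adjusted p 0.021). It was then also lower on vehicle than on chow in W/F (-1.02, adjusted p 0.0023, limma). The deposited values of these 4 comparisons lay between -0.52 and -0.01 and were not called. In the GENCODE M21 annotation 8.55% of its exon bases are shared with Thra on the other strand, and the strand setting of the counting is not given.

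Nr1d2, the paralogue REV-ERB beta, changed in the same direction as Nr1d1 where both passed. In W/F it measured 54.9, 49.0, 30.7 and 40.6 TPM on chow and 23.1, 25.5, 28.8 and 30.2 with T0901317, with no overlap. It fell by 0.66 (log2, SE 0.19, adjusted p by limma 0.0083) and by 0.56 after rescaling (adjusted p 0.016), and the call in deposited TPM held without any 1 of the 8 libraries. In W/W it fell by 0.51 from chow to T0901317 (adjusted p 0.047, limma) and by 0.58 from chow to vehicle (adjusted p 0.039), and neither passed after rescaling (-0.46 in both, adjusted p 0.060 and 0.087). The first was lost without any 1 library except T0901317 mouse 3 or chow mouse 4 (-0.42 to -0.55, adjusted p 0.058 to 0.15, limma). The second was lost without chow mouse 1 or 2 or vehicle mouse 1, 3 or 4 (-0.49 to -0.60, adjusted p 0.054 to 0.14, limma).

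Several differences in Nr1d2 were called in deposited TPM only. Relative to W/W on vehicle, it was 0.66 (log2) higher in W/F and 0.65 higher in F/F (adjusted p 0.0027 and 0.0026, limma), with no overlap. Rescaled, these differences were 0.01 and -0.19 and did not pass (adjusted p 0.96 and 0.38, limma). The same held for its higher level in F/F than in W/W on T0901317 (0.54, adjusted p 0.014, and 0.03 rescaled, adjusted p 0.92, limma) and for its fall from vehicle to T0901317 in W/F (-0.63, adjusted p 0.0042, and -0.04 rescaled, adjusted p 0.88). On chow, Nr1d2 gave -0.05 in F/F against W/W, where the median gene moved by 0.29, and -0.43 rescaled, which did not pass (adjusted p 0.077, limma). Clock behaved likewise between F/F and W/W on vehicle, at 0.48 (adjusted p 0.0098, limma) and -0.23 rescaled (adjusted p 0.21), and was not called without W/W vehicle mouse 1 (0.35, adjusted p 0.064). In W/F it gave 0.27 (adjusted p 0.15, limma), and 0.42 without W/W vehicle mouse 3, which passed (adjusted p 0.025). On chow Clock was 0.47 higher in F/F than in W/W (adjusted p 0.021, limma, groups apart) and 0.13 rescaled (adjusted p 0.57). That call was lost without W/W mouse 1 or F/F mouse 3 or 4 (0.41 to 0.44, adjusted p 0.057 to 0.069, limma).

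Dbp, the output factor of the loop, measured 101, 19.7, 30.8 and 18.6 TPM in F/F chow mice, 128, 59.3, 55.7 and 79.2 in F/F vehicle mice and 97.2, 117, 123 and 57.8 in F/F T0901317 mice. It measured 121, 86.0, 64.7 and 27.5 in W/W chow mice and 128, 92.4, 15.9 and 71.5 in W/F chow mice. In F/F chow, mouse 1 was near the level of the gavaged groups and mice 2, 3 and 4 were far below. From chow to T0901317 in F/F it rose by 1.50 on the log2 scale (SE 0.47, adjusted p by limma 0.014) and by 1.41 after rescaling (adjusted p 0.020), with overlap. The rise was not called without F/F chow mouse 2 (1.26, adjusted p 0.059, limma) or mouse 4 (1.24, adjusted p 0.055). From chow to vehicle in F/F it rose by 1.19 (adjusted p 0.034, limma) and by 0.84 rescaled, which did not pass (adjusted p 0.15). That call was lost without chow mouse 2, 3 or 4 or vehicle mouse 1 or 4 (0.93 to 1.17, adjusted p 0.060 to 0.12, limma). On chow, Dbp in F/F against W/W was -0.98 (adjusted p 0.089, limma) and -1.36 after rescaling, which passed (adjusted p 0.030). Without F/F chow mouse 1 the deposited difference was -1.51 (adjusted p 0.0081, limma) and without W/W chow mouse 4 it was -1.39 (adjusted p 0.021), both past the threshold. Of Dbp's exon bases, 18.0% are shared with Sphk2 on the other strand in GENCODE M21.

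The response to a treatment was also compared between genotypes by an interaction term. For the change from chow to vehicle, 1 of 10 members was called in W/F relative to W/W (54.6% of all genes) and 1 in F/F relative to W/W (46.0%). For the change from vehicle to T0901317, 2 were called in W/F (58.5%) and 0 in F/F (30.4%, 0 members with an unadjusted p under 0.05 by limma). For Per1 the change from chow to vehicle differed by 1.68 between W/F and W/W (adjusted p 0.025, limma), with 1.20 in W/F and -0.48 in W/W. Its change from vehicle to T0901317 differed by -1.61 (adjusted p 0.030, limma), with -1.29 in W/F and 0.32 in W/W. Neither W/W change was called, and both had the opposite sign to W/F. Nr1d2 gave -0.70 for T0901317 in W/F (adjusted p 0.025, limma) and 0.70 for the diet in F/F (adjusted p 0.033). None of these passed after rescaling (1.09, -0.98, -0.04 and 0.23). The first Per1 value was 0.92 without W/F chow mouse 3, 1.45 without W/W chow mouse 1 and 1.41 without W/W vehicle mouse 3, and did not pass then (adjusted p 0.078, 0.061 and 0.066, limma). The second was lost without W/F T0901317 mouse 1 or 3, W/F vehicle mouse 1 or W/W vehicle mouse 3 (-1.34 to -1.53, adjusted p 0.050 to 0.076, limma).

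The Nr1d2 interaction for T0901317 in W/F was lost without W/F T0901317 mouse 1, W/F vehicle mouse 2 or 3, W/W T0901317 mouse 3 or W/W vehicle mouse 1 (-0.56 to -0.64, adjusted p 0.052 to 0.075, limma). Its diet interaction in F/F was lost without F/F chow mouse 2, 3 or 4, F/F vehicle mouse 1 or 4, W/W chow mouse 1 or 2, or W/W vehicle mouse 1 or 3 (0.60 to 0.68, adjusted p 0.051 to 0.082, limma). Some interactions passed in deposited TPM only without 1 library. For the diet these were Per3 in F/F without F/F chow mouse 1 or W/W chow mouse 4 (1.59 and 1.49, 1.15 with all) and Nr1d2 in W/F without W/F chow mouse 1, W/F vehicle mouse 4 or W/W chow mouse 4 (0.67 to 0.69, 0.55 with all). For T0901317 they were Clock in W/F without W/W vehicle mouse 3 (-0.53, -0.38 with all), Cry1 in W/F without W/F vehicle mouse 1 or W/W vehicle mouse 2 (0.87 and 0.89, 0.75 with all) and Nr1d1 in F/F without W/W vehicle mouse 1 (1.13, 0.80 with all). In rescaled TPM, 1, 0, 1 and 1 members were called in these comparisons (diet in W/F, diet in F/F, T0901317 in W/F and T0901317 in F/F), where 40.1%, 26.8%, 43.9% and 17.4% of all genes were. They were Cry1 for the diet in W/F (-1.15, adjusted p 0.013, limma), Cry1 for T0901317 in W/F (1.36, adjusted p 0.0034) and Nr1d1 for T0901317 in F/F (1.14, adjusted p 0.041). For the diet in F/F, 0 members had an unadjusted p under 0.05 by limma after rescaling.

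Most members varied more between mice of a group than most genes did. The within-group SD on the log2 scale was 0.71 for Dbp, above that of 96.1% of the 16638 genes tested. It was 0.67 for Per1 (95.1%), 0.64 for Per3 (94.6%), 0.64 for Arntl (94.5%) and 0.58 for Per2 (93.1%). Nr1d1 (84.5%), Cry1 (80.3%) and Npas2 (79.4%) followed, and Nr1d2 (66.0%) and Clock (56.5%) were nearer to the middle. Among the 1000 genes closest in mean level the order was led by Per1 (98.7%) and Dbp (98.6%), and Npas2 fell to 55.5%.

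Members of opposite phase were set against each other within each liver, as log2 of Arntl over Dbp, which no scaling of a library moves. The 5 highest ratios all belonged to chow mice: W/F mouse 3 (-1.09), F/F mouse 4 (-1.57), F/F mouse 2 (-2.14), W/W mouse 4 (-2.67) and F/F mouse 3 (-2.92). The lowest ratio was also that of a chow mouse, W/F mouse 1 (-8.97). The 12 chow mice thus spanned 7.88 on the log2 scale, the 12 vehicle mice 3.59 (-7.50 to -3.90) and the 12 T0901317 mice 3.61 (-8.73 to -5.12). By group, the ratio was -5.91 ± 2.41 in W/W chow, -5.86 ± 3.41 in W/F chow and -3.13 ± 1.93 in F/F chow (SD, n = 4). It was -6.17 ± 0.547, -5.87 ± 1.06 and -5.49 ± 1.64 with vehicle, and -7.65 ± 0.662, -7.79 ± 0.709 and -6.64 ± 1.12 with T0901317, in the same order of genotypes. The chow groups had the widest spread in each genotype.

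**Figure D3:**
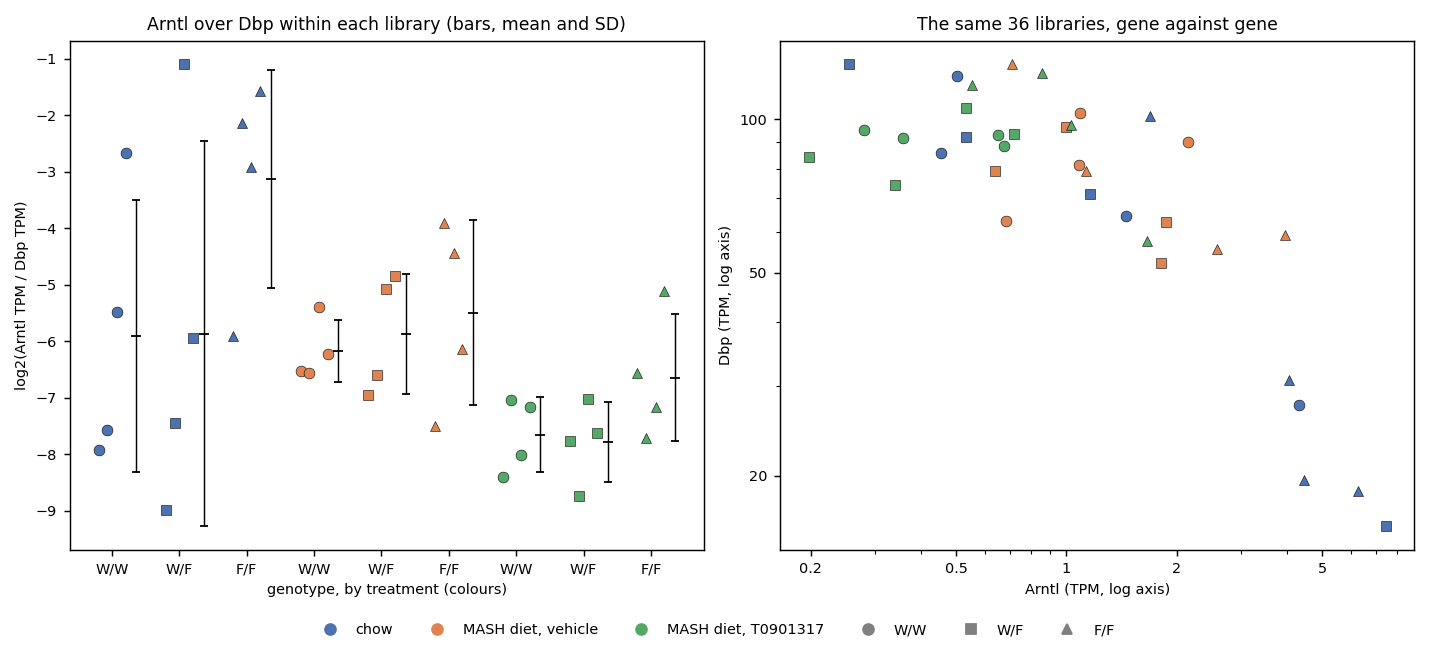
Left, log2 of Arntl TPM over Dbp TPM in each of 36 livers, by genotype and treatment, with the mean and SD of each group (n = 4). Right, Dbp against Arntl (TPM, log axes) in the same livers, where the 5 points with the highest Arntl have Dbp of at most 30.8 TPM and are all chow mice.

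A difference in collection time of the chow cohort would move these values, and the labels give no time against which to set them. Within the chow cohort itself the mice did not share 1 pattern. In W/F chow mouse 3, Arntl was 7.45 TPM, Npas2 1.48, Cry1 11.6, Dbp 15.9 and Per1 1.79. In W/F chow mouse 1 Arntl was 0.255, Npas2 0.025, Cry1 4.84, Dbp 128 and Per1 25.9. Nr1d1 did not follow Dbp in this pair, at 119.8 TPM in mouse 3 and 100.8 in mouse 1. W/W chow mouse 4 was like W/F chow mouse 3 in Arntl (4.33 TPM), Dbp (27.5) and Per1 (5.10). W/W chow mice 1 and 2 were like W/F chow mouse 1 in Arntl (0.501 and 0.456) and Dbp (121 and 86.0). In F/F chow, mice 2, 3 and 4 combined high Arntl and low Dbp with Per1 of 25.4, 18.9 and 27.9 TPM. For Arntl, the range of the 12 chow mice (0.255 to 7.45 TPM) held all 12 vehicle mice (0.639 to 3.96). For Clock, the chow mice ranged from 4.60 to 9.71 TPM and the T0901317 mice from 2.15 to 5.45. Because chow, cohort, absence of gavage and any difference in collection time coincide, their parts cannot be told apart.

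The vehicle and T0901317 groups had the same diet and route of treatment, and between them the ratio of Arntl to Dbp overlapped in F/F but not in W/W or W/F. Of the 6 ratios of Arntl or Clock to Dbp, Per3 or Nr1d1, 4 did not overlap in W/W, 3 in W/F and 1, Clock to Nr1d1, in F/F. Some gaps were small, as for Clock to Per3 in W/W (lowest vehicle -1.24, highest T0901317 -1.30). These ratios share genes, and the share of other gene pairs that would not overlap was not worked out, so the counts are descriptions only. Between the same groups, 10.8%, 65.9% and 35.1% of all genes were called by limma in deposited TPM (13.5%, 50.8% and 16.3% rescaled). That is another measure and gives no rate at which ratios would not overlap. In W/W vehicle mice the ratio of Arntl to Dbp ran from -6.56 to -5.39 and in W/W T0901317 mice from -8.41 to -7.03. In W/F the ranges were -6.95 to -4.85 and -8.73 to -7.02. Neither gene passed on its own in these comparisons. Arntl gave -0.57 (W/W), -0.66 (W/F) and -0.51 (F/F) (adjusted p 0.48, 0.18 and 0.36, limma), and Dbp gave 0.15, 0.32 and 0.31 (adjusted p 0.92, 0.57 and 0.63), as log2 fold changes of deposited TPM.

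Across mice the members moved together or in opposition, as deviations from the group mean in rescaled log2 values. Of 45 pairs, 31 had an adjusted p under 0.05 (Pearson's r, permutation within groups, Benjamini-Hochberg over the 45), 14 positive and 17 negative. Arntl and Dbp gave r = -0.88 and Spearman's rho = -0.78 over 36 mice (adjusted permutation p 1.1e-04 and 3.5e-04). Without the 2 mice farthest in Arntl r was -0.79, and within treatments it was -0.96 on chow, -0.66 with vehicle and -0.40 with T0901317 (n = 12 mice each). It was negative in each treatment. Arntl and Per3 gave r = -0.88 (rho -0.84, adjusted permutation p 5e-05, r -0.85 without 2 mice), with -0.94, -0.87 and -0.62 within chow, vehicle and T0901317.

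Arntl moved with its partners, at r = 0.86 with Npas2 (rho 0.78, adjusted permutation p 5e-05, 0.75 without 2 mice) and r = 0.74 with Clock (rho 0.74, adjusted permutation p 5e-05, 0.76 without 2 mice). Within chow, vehicle and T0901317 these were 0.89, 0.86 and 0.75 for Npas2 and 0.82, 0.84 and 0.64 for Clock. On the other side Per3 moved with Nr1d2 (r = 0.92, rho 0.90, adjusted permutation p 5e-05, 0.88 without 2 mice) and with Dbp (r = 0.90, rho 0.85, adjusted permutation p 5e-05, 0.86 without 2 mice). The smallest unadjusted p that 100000 permutations can give is 1e-05, which was reached in these pairs and becomes 5e-05 when adjusted. Within the 3 treatments Per3 and Nr1d2 gave 0.97, 0.86 and 0.77, and Per3 and Dbp 0.98, 0.74 and 0.89.

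Cry1 and Nr1d1 fitted these sets less closely. Cry1 and Arntl gave r = 0.36 (rho 0.17, adjusted permutation p 0.11, 0.065 without 2 mice), made up of 0.92 on chow, -0.19 with vehicle and -0.54 with T0901317. Nr1d1 and Dbp gave r = 0.21 (rho 0.24, adjusted permutation p 0.15, 0.21 without 2 mice), with 0.50, 0.01 and 0.09 within the treatments. Nr1d1 and Clock gave r = 0.45 (rho 0.36, adjusted permutation p 0.036 and 0.098, 0.35 without 2 mice), with -0.40 on chow and 0.82 and 0.74 in the other treatments. The signs of Cry1 with Arntl and of Nr1d1 with Clock thus differed between chow and the MASH diet groups, a difference that was not tested.

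**Figure D4:**
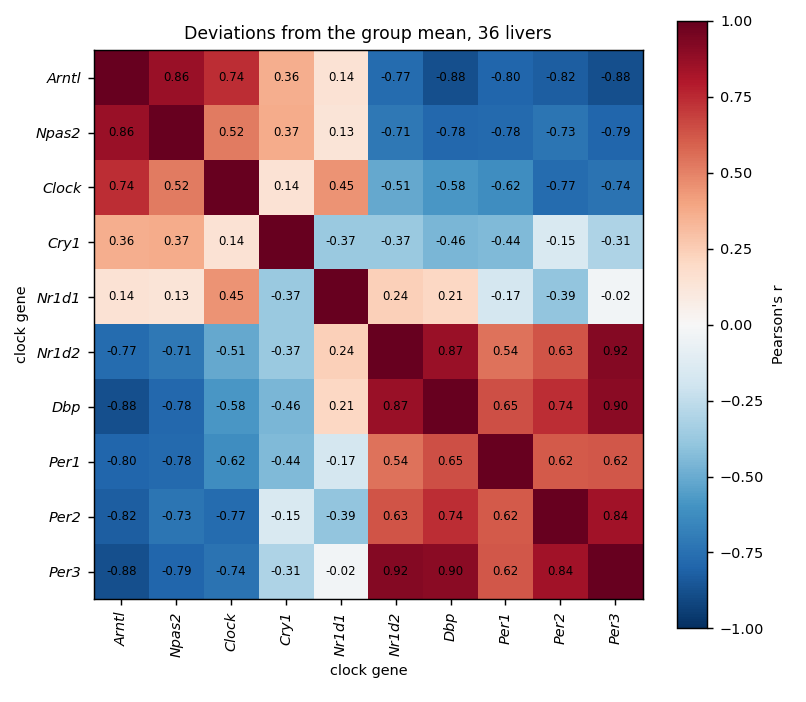
Pearson's r between each pair of clock genes over 36 livers, from deviations from the group mean of rescaled log2 values. Arntl, Npas2 and Clock form 1 block and Nr1d2, Dbp, Per1, Per2 and Per3 another, with negative values between them (Arntl and Dbp, -0.88).

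The genes whose deviations were most like those of Arntl and Dbp were looked for among 9225 genes with a mean of at least 5 TPM, over the 36 mice. Closest to Arntl were Clpx, a mitochondrial chaperone subunit (r = 0.92), Lgalsl (0.87), Tjp3 (0.85), Ypel2 (0.83) and Dtx4 (0.82). Most opposed to it were Coq10b (-0.92), the deubiquitinase Usp2 (-0.92), Dbp (-0.88), Per3 (-0.88) and Ciart, a clock repressor (-0.87). Closest to Dbp were Tef, another D-box factor of its family (0.93), Ciart (0.91), Usp2 (0.90), Per3 (0.90) and Coq10b (0.88). Lgalsl (-0.87), St5 (-0.85), Tubb2a (-0.84), Slc45a3 (-0.79) and Net1 (-0.78) were the most opposed to Dbp. Usp2, Coq10b, Ciart and Per3 thus stood at the Arntl-opposed end and at the Dbp-like end of both rankings. These correlations share libraries and are given as descriptions.

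Over the 9 group means other genes came first. For Arntl they were Dek (r = 0.94), Ndc1 (0.93), Reps1 (0.91), Fmr1 (0.91) and Tff3 (0.90) on the positive side and Mif, Zhx2, Rpl4, Vps51 and Kmt5c on the negative side (-0.95 to -0.94). For Dbp they were Eif3m, Usf2, Ilkap, Per3 and Glt1d1 (0.97 to 0.96), opposed by Usp6nl, Fndc3b, Tbc1d8, Pomk and Blcap (-0.96 to -0.95). Of the genes named for the deviations between mice, only Per3 for Dbp returned.

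Other parts of the clock were counted in 15 tested genes of a list of 16 (Cry2, Rora, Tef, Hlf, Nfil3, Bhlhe40, Bhlhe41, Ciart, kinases and ubiquitin ligases of PER and CRY, Timeless, Tipin and Rbm4). In deposited TPM the diet with vehicle raised 0 and lowered 1 of them in W/W, raised 7 and lowered 1 in W/F, and raised 6 and lowered 0 in F/F. Their median changes were -0.06, 0.06 and 0.33 (log2), beside -0.05, 0.39 and 0.32 over all genes tested. Of all genes, 12.9%, 61.0% and 55.8% were called. After rescaling the counts were 1 and 0, 3 and 5, and 3 and 2, where 15.4%, 54.9% and 47.0% of all genes were called. Between F/F and W/W, 6 were higher and 0 lower on chow, 9 and 0 on vehicle and 7 and 0 on T0901317 (2 and 5, 4 and 5, and 1 and 2 rescaled). Of all genes tested, 46.7%, 76.5% and 63.2% were called in these comparisons in deposited TPM, each above the list's share. After rescaling 29.9%, 59.1% and 46.9% were. The list's share was then above that of all genes on chow, near it on vehicle and below it on T0901317. Between W/F and W/W, 0 were called on chow or T0901317 and 7 were higher on vehicle (5 higher and 3 lower rescaled). On vehicle 68.5% of all genes were called in deposited TPM and 53.1% after rescaling. The 9 that were higher in F/F on vehicle were Csnk1e, Timeless, Fbxw11, Bhlhe41, Csnk1d, Tipin, Btrc, Rora and Fbxl21 (2.12 to 0.49, log2).

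Among these, Csnk1e, a kinase that marks PER proteins, was higher in F/F than in W/W in every treatment under both scalings. It measured 3.88 ± 0.415 TPM (W/W), 13.7 ± 2.31 (W/F) and 20.3 ± 2.68 (F/F) on vehicle (mean ± SD, n = 4), a log2 difference of 2.12 between F/F and W/W (1.35 rescaled). Nfil3, the repressor that competes with DBP at D-boxes, fell with T0901317 in W/W from 22.8 ± 7.16 to 9.36 ± 2.30 TPM (-1.18, and -1.26 rescaled).

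Of 16 liver genes known to follow the clock, the diet with vehicle raised 1 and lowered 0 in W/W, raised 7 and lowered 3 in W/F, and raised 5 and lowered 3 in F/F (1 and 0, 5 and 6, and 4 and 5 rescaled). Their medians were 0.14, 0.46 and 0.47 (log2), where those of all genes were -0.05, 0.39 and 0.32. Of all genes, 12.9%, 61.0% and 55.8% were called (15.4%, 54.9% and 47.0% rescaled). T0901317 against vehicle raised 1, 6 and 4 and lowered 0, 4 and 1 in W/W, W/F and F/F. After rescaling it raised 1, 7 and 4 and lowered 0, 1 and 1. Of all genes, 10.8%, 65.9% and 35.1% were called in deposited TPM and 13.5%, 50.8% and 16.3% after rescaling. Between F/F and W/W on vehicle, Lonrf3, Nampt, Noct, Tspan4 and Alas1 were higher (1.14 to 0.81, log2) and Elovl3, Upp2, Rgs16, Cyp7a1 and Gys2 lower (-6.74 to -0.60). In that comparison 76.5% of all genes were called. Por, the electron donor of the cytochromes P450, rose on the diet in all 3 genotypes under both scalings (1.16, 1.21 and 1.79 as deposited, and 1.29, 0.71 and 1.44 rescaled). Elovl3, a fatty acid elongase, was 226 ± 103 TPM (W/W), 5.13 ± 4.23 (W/F) and 1.06 ± 0.784 (F/F) on vehicle, a log2 difference of -6.74 between F/F and W/W (-7.30 rescaled). Upp2, a uridine phosphorylase, gave -4.04 in the same comparison (-4.83 rescaled). Por, Elovl3, Upp2 and Cyp7a1 are also under metabolic and receptor control, so this list does not read the clock alone.

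Genes that follow body temperature and glucocorticoids were counted because both signals can set or mask liver rhythms. On vehicle, 7 of 8 temperature genes were higher in F/F than in W/W and 6 of 8 in W/F, with 0 lower, but after rescaling 2 were higher and 1 lower in F/F and 1 and 1 in W/F. The 7 were Rbm3, Hspa1b, Hspa1a, Cirbp, Hspa8, Hsp90aa1 and Dnajb1. Their medians were 0.86 in F/F and 0.56 in W/F (log2), where those of all genes were 0.70 and 0.52. Of all genes, 76.5% and 68.5% were called (59.1% and 53.1% after rescaling). Rbm3, raised by cold, was higher under both scalings (2.44 in F/F and 2.09 in W/F, and 1.60 and 1.45 rescaled). Of 8 genes raised by glucocorticoids, 6 were higher in F/F and 5 in W/F than in W/W on vehicle, with 0 lower (3 higher and 2 lower in F/F and 3 and 0 in W/F rescaled), with medians of 1.06 and 0.95, beside the same shares and medians of all genes. The 6 in F/F were Mt2, Mt1, Sgk1, Zbtb16, Tsc22d3 and Pck1. Those higher under both scalings in both genotypes were Sgk1 (3.26 in F/F and 3.05 in W/F), Mt1 (3.97 and 3.62) and Mt2 (4.68 and 4.55), which also respond to inflammation and metals. Tat fell on the diet with vehicle in each genotype under both scalings (-1.37 for W/W, -1.04 for W/F and -1.28 for F/F), and Fkbp5 rose in W/W and W/F (1.37 and 1.45). Per1, itself a glucocorticoid target, was highest on vehicle in W/F and F/F, and the parts of these signals in its level were not tested.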

How the data were processed

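PolyA RNA of 36 mouse livers was sequenced. The labels gave each library its genotype, treatment and replicate number. Trimmomatic 0.36, STAR 2.5.2b, Subread 1.5.2 with featureCounts, and the build GRCm38 (mm10) are named in the submitters' processing notes. How the TPM were computed from counts, and whether counting used strand, is not given in the sources used here. The authors deposited 1 table of TPM, per its column names, and each column summed to 1e+06. Such values allow for gene length and depth but not for a shift in what a library is made of.

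Values were analysed as log2(TPM + 1) (pseudocount 1) for the 16638 genes that reached 1 TPM in 4 or more libraries. The 9 group means were estimated jointly in limma 3.58.1 (R 4.3.3, variances moderated along a trend with the mean), and two-sided p-values of 19 comparisons were adjusted by Benjamini-Hochberg over all genes tested, with a threshold of 0.05. A fold change on this scale understates the change of low genes such as Npas2 and Arntl. Each fit was repeated on TPM divided by the median of each library's ratios to the geometric mean of 14786 genes. The p-values rest on 1 spread between mice per gene, shared by all 9 groups. For some members chow mice spread more, as for Dbp (SD 39.3, 47.0 and 39.5 TPM in W/W, W/F and F/F chow). In the other groups the SD of Dbp ran from 2.75 (W/W T0901317) to 33.4 (F/F vehicle). For such members the shared spread may be too small for comparisons with chow and too large for those without it. The procedure was tested on simulated data.

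Depth was recovered from genes between 0.02 and 0.4 TPM and their GENCODE M21 exon lengths, and 92.7% to 95.0% of values under 20 reads lay within 0.1 of a whole number, where chance gives 20%. Correlations used deviations from group means and 100000 permutations within groups. All 10 members were named, and genes of the further lists were named where called between F/F and W/W on vehicle in deposited TPM, with examples from other comparisons picked after their values were seen; 2 genes of these lists were left out of the counts and are not reported here. The members and lists were chosen with earlier results of these data known. The alternatives tried were another pseudocount (0.1), a stricter filter (5 TPM) or none, rescaling, a block for the replicate number, weights for array quality, no trend, a fit of only the groups compared, leaving out each library and, added after the data were seen, a fit of only the MASH-diet libraries.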

Additional observations from a re-analysis of the deposited data

Results flagged for a closer look

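In 4 cases the response of a clock gene to a treatment differed between genotypes by an interaction term in limma on deposited TPM. The change of Per1 from chow to vehicle differed by 1.68 on the log2 scale between W/F (1.20) and W/W (-0.48, not called). Its change from vehicle to T0901317 differed by -1.61 between W/F (-1.29) and W/W (0.32, not called). For Nr1d2 the change from vehicle to T0901317 differed by -0.70 between W/F and W/W, and the change from chow to vehicle by 0.70 between F/F and W/W. None of these was called after rescaling.

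In 9 of 90 groups of 4 mice, 1 mouse stood far from the other 3. For normally distributed values chance gives about 1 in 20 groups. The rule was applied to TPM and not to log2 values, and on TPM high values stand out more. The 9 can therefore not be set against that rate, and other mice could stand out on a log scale. W/F chow mouse 3 stood apart for Arntl (7.45 TPM), Npas2 (1.48 TPM) and Cry1 (11.6 TPM). F/F chow mouse 1 did so for Per3 (9.13 TPM), Nr1d1 (123.7 TPM) and Dbp (101 TPM). The others were W/W chow mouse 4 for Npas2 (1.54 TPM), F/F chow mouse 4 for Cry1 (7.21 TPM) and F/F T0901317 mouse 4 for Clock (5.45 TPM). Each was the highest of its group, and 8 of the 9 were chow mice. Values of 1 mouse for several clock genes are not independent of each other.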

How the results depend on the processing

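The counts of members called moved by more than 1.5 times under these settings. With a pseudocount of 0.1, T0901317 against vehicle in F/F gave 0. With at least 5 TPM required (Arntl and Npas2 were then not tested), F/F against W/W on chow gave 1. With no filter, the diet gave 0 in W/W and 1 in F/F, T0901317 against chow in W/W gave 1, T0901317 against vehicle gave 0 in W/W and F/F, F/F against W/W on chow gave 1, and the interactions gave 0 for the diet in W/F and F/F and 1 for T0901317 in W/F. After rescaling, the diet gave 0 (W/W), 3 (W/F) and 1 (F/F), T0901317 against vehicle gave 0 in W/F and F/F, F/F against W/W on T0901317 gave 1, and the interactions gave 1 for T0901317 in W/F and in F/F and 0 for the diet in F/F. With array weights, the diet gave 0 in W/W and 2 in W/F, T0901317 against vehicle in W/W gave 0, F/F against W/W on chow gave 1, and the interactions gave 0 for the diet in W/F and F/F and 1 for T0901317 in F/F. With only the groups compared, the diet gave 0 (W/W), 0 (W/F) and 2 (F/F), T0901317 against chow in F/F gave 2, T0901317 against vehicle gave 0 in W/W and 2 in F/F, F/F against W/W gave 1 on chow and 4 on T0901317, and the diet interaction in W/F gave 0. The cause was not tested in any of these.

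Leaving out 1 library gave counts of 0 to 1 (W/W), 0 to 2 (W/F) and 0 to 4 (F/F) for the diet, 1 to 2 (W/W) and 1 to 5 (F/F) for T0901317 against chow, 0 to 1 (W/W and F/F) for T0901317 against vehicle and 0 to 5 when F/F and W/W were compared on chow. For the interactions the ranges were 0 to 2 for the diet in W/F and in F/F, and 0 to 3 in W/F and 0 to 1 in F/F for T0901317.

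Over all genes tested, same-numbered mice of different groups gave a mean correlation of deviations of 0.016. Of 36 libraries, 12 correlated best with their own number. The ratio of Arntl to Dbp was lowest in mouse 1 in each chow group, in W/F and F/F vehicle (-6.95 and -7.50) and in W/W T0901317 (-8.41). It was lowest in mouse 2 in W/W vehicle (-6.56) and in W/F and F/F T0901317 (-8.73 and -7.72). The labels do not say whether the numbers mark a shared litter, cage or day, and this order was not tested. With the replicate number as a block the diet gave 2 members in W/W and 2 in W/F, and no other count moved.

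Of 33 single changes called in deposited TPM, rescaling kept 11, weakened 20 and reversed 2, Clock (-0.23) and Nr1d2 (-0.19) between F/F and W/W on vehicle. A pseudocount of 0.1, a block and no trend each kept 32 of 33. A fit of only the MASH-diet libraries, chosen after seeing the data, kept 14 of 14. Depth limits Npas2 and Arntl most.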
